A study of Mus musculus with 2 samples.

Results

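Uracil-DNA glycosylase and 6 mismatch repair genes were compared between arrays of Eµ-Myc B-cell lymphoma cultures, in which a Myc transgene is driven by the immunoglobulin heavy chain enhancer. The 7 genes (Ung, Msh3, Msh6, Mlh3, Pms1, Pms2 and Exo1) were taken by their symbol in the platform annotation, out of 18193 genes named there, and were represented by 14 probe sets. One array held RNA of lymph node lymphoma cells labelled Cdk4+/+ and the other RNA of such cells labelled Cdk4-/-. Both groups carried the Eµ-Myc transgene, both were cultured in serum-containing medium before extraction, and each was a single array. No difference below therefore has a replicate, a standard error or a p-value, and nothing in the labels says how many animals or tumours stood behind each culture.

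In B cells of the germinal centre, uracil arises in immunoglobulin genes. UNG removes the uracil and hands the site to base excision repair, while the mismatch repair proteins recognise the same lesion as a mispair and open the strand for error-prone resynthesis. Outside immunoglobulin genes the same proteins repair DNA faithfully, and mismatch repair corrects replication errors in every dividing cell. MutS proteins (MSH3, MSH6) bind the mismatch, MutL proteins (PMS2, PMS1, MLH3) couple it to strand cutting, and the exonuclease EXO1 removes the stretch that is resynthesised.

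The targeted gene went against the labels. The 3 Cdk4 probe sets gave signals of 1.19, 1.18 and 3.71 on the array labelled wild type but of 4945, 4506 and 6958 on the array labelled null. Every direction below is stated by the deposited labels and would be the opposite if the arrays had been exchanged. Where a pair of signals is written as one against another, the array labelled wild type comes first. Signals are MAS5 intensities on a linear scale. A signal under the floor of 62.2, the median over all probe sets of both arrays, was set to the floor before log2 was taken. A log2 difference is the array labelled null minus the array labelled wild type, a fold is its linear size, and a gene is called measured where its brightest probe set lay above the floor on both arrays. The SD of the log2 difference of a single probe set was 0.30 and is the error quoted below. It was derived from the gap between the brightest and next brightest probe set of each of 3082 genes, scaled to a single probe set. Probe sets with the suffix a, s, x or f before _at were left out of it. How much cultures or tumours vary is not part of it. B-lineage markers were bright on both arrays, with 6 of 6 above the floor and summed signals of 24446 against 29072.

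The promoters of the MutS genes Msh3 and Msh6 and of the MutL gene Pms1 are shown because these genes lay furthest from 0 among the 7. Each window runs from 250 bases before the start site through the first 30 bases from it, as given by RefSeq in GRCm38.p6. Capitals mark matches to E2F motifs in Msh3 and Msh6 and to the CCAAT box in Pms1.
Msh3, GRCm38.p6 chr13:92354974-92355253, minus strand: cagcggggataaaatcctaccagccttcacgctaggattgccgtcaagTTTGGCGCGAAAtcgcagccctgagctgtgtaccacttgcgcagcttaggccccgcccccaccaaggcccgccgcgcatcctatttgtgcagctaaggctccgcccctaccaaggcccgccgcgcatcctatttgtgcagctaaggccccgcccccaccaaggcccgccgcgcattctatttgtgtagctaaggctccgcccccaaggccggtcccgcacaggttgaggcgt
Msh6, GRCm38.p6 chr17:87974800-87975079, plus strand: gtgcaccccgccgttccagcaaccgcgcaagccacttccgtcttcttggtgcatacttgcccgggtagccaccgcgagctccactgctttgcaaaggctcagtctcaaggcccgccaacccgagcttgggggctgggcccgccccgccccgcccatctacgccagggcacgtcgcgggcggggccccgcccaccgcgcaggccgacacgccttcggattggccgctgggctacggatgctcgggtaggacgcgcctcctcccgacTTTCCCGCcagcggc
Pms1, GRCm38.p6 chr1:53296999-53297278, minus strand: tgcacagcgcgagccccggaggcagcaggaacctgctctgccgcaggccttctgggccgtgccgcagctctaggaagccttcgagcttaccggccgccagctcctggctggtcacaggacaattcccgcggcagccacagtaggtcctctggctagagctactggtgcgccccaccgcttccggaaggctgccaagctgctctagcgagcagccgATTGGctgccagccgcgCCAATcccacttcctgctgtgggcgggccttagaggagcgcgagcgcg

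The mismatch repair genes did not move as a block. On the array labelled null, Msh6 was 1.71-fold lower, Msh3 1.31-fold lower and Pms2 1.23-fold lower, Pms1 was 1.74-fold higher, and Ung, Mlh3 and Exo1 differed by less than 1.04-fold by their brightest probe sets. All 7 genes were measured. Of these, 0 were at 2-fold or more in either direction, against 4.26% of all 9418 measured genes higher and 3.27% lower. At 1.5-fold, 1 was higher and 1 lower, against 11.1% and 9.56% of measured genes. The median log2 difference of the 7 was -0.03, that of all measured genes was 3.12e-05, and 3 of the 7 lay above 0 and 4 below, against 50.0% of measured genes on each side. In 4 of the 7 genes the difference was smaller than the probe set SD.

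**Figure D1:**
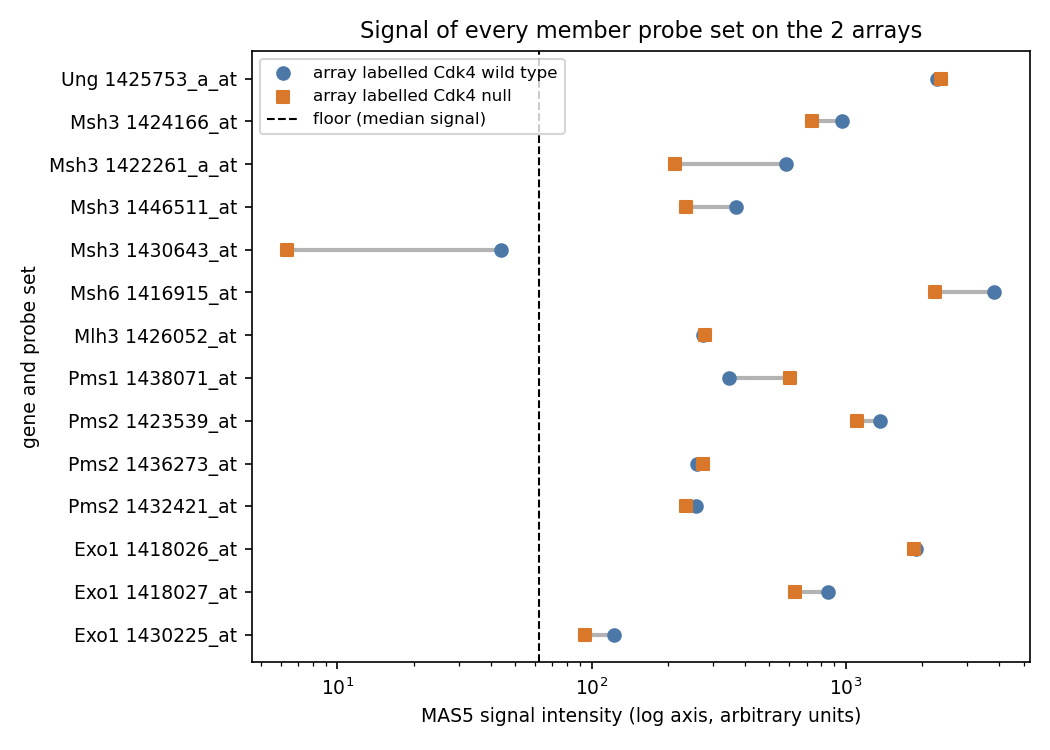
Signals of the 14 probe sets of the 7 genes on the array labelled Cdk4 wild type (circles) and the array labelled Cdk4 null (squares), on a log axis of MAS5 intensity, with the floor of 62.2 as a dashed line. The 3 Msh3 probe sets above the floor and the Msh6 probe set are brighter on the array labelled wild type, and Pms1 is brighter on the array labelled null.

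Ung encodes the main uracil-DNA glycosylase, in a mitochondrial and a nuclear form. Its single probe set read 2284 against 2365. The log2 difference of 0.05 was 0.17 of the probe set SD, so the signals were alike within probe set error. This probe set is of a kind that can pick up more than 1 transcript (suffix a, s, x or f, called shared here), and no second one covered the gene.

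Msh6 encodes the MutS subunit that recognises base mispairs, including the pair of uracil with guanine. It was brighter on the array labelled wild type, at 3838 against 2240, the lowest difference of the 7 at -0.78. In probe set SDs this is -2.57, and 12.9% of measured genes lay at least as far from 0 in either direction. A single probe set covered Msh6, so no second reading exists. Its neighbours on chromosome 17 were also low. Of the 16 measured genes nearest to it, at most 10 on each side, 13 lay below 0 with a median of -0.28, whereas the median of chromosome 17 was 0.06. Msh6 lay below 13 of these 16 neighbours.

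Msh3 encodes the subunit that recognises small loops of unpaired bases and competes with MSH6 for the same partner. Its brightest probe set read 964 against 739, a difference of -0.38 or -1.27 SD. A second read 369 against 235, a difference of -0.65. The third, a shared probe set, read 583 against 213.6, a difference of -1.45 or 2.73-fold. All 3 were lower on the array labelled null, but their sizes ran from 1.31-fold to 2.73-fold. The third was the only one of the 13 measured probe sets of the 7 genes at 2-fold, against 3.24% of 17820 measured probe sets lower and 3.54% higher by that much. The fourth probe set of Msh3 lay below the floor on both arrays, at 43.8 and 6.33, and gives no fold. The 20 nearest measured genes on chromosome 13 had a median of -0.04, and Msh3 lay below 16 of them.

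The other MutS genes Msh4 and Msh5, which act in meiotic crossing over, were near or below the floor and are named as the other genes of that family, with their values known. Msh4 read 15.0 and 13.7 and has no fold. Msh5 was above the floor only on the array labelled null, at 33.4 against 108 (at least 1.74-fold), and its other probe set read 50.0 against 105.

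Among the MutL genes, Pms2 and Pms1 lay on opposite sides of 0. Pms2 encodes the subunit whose endonuclease nicks the strand to be repaired. Its brightest probe set read 1360 against 1104, a difference of -0.30. The other 2 read 261 against 273 and 257 against 236. One of the 3 was thus slightly higher and 2 were lower on the array labelled null, none by more than 1 SD. Pms2 and Ung lie on chromosome 5, whose 632 measured genes had a median of -0.16. Of the 20 nearest measured neighbours of Pms2, 17 lay below 0, with a median of -0.23.

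Pms1 encodes a MutL partner with a minor part in mismatch repair. It was brighter on the array labelled null, at 346 against 601, the highest difference of the 7 at 0.80, or 2.64 SD. A difference as far from 0 in either direction was found in 12.3% of measured genes. The neighbours of Pms1 on chromosome 1 lay on both sides of 0. Its 20 nearest measured genes had a median of -0.09, with 9 above 0 and 11 below, and Pms1 lay above 15 of them. A single probe set covered Pms1.

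Mlh3 encodes a MutL partner that acts mainly in meiosis. It read 274 against 280, a difference of 0.03 that is within the probe set SD.

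Exo1 encodes the exonuclease that works on both sides of the pathway, in mismatch correction and in antibody diversification. Its brightest probe set read 1890 against 1851, a difference of -0.03. The other probe sets read 848 against 628 and 123 against 94.5, differences of -0.43 and -0.38. All 3 were lower on the array labelled null, but only the dimmer ones by more than the SD. The 3 readings of Exo1 thus differ in size by more than the brightest one differs from 0.

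Gaps between the log2 differences of 2 genes do not depend on a linear scaling of the arrays. Msh6 minus Pms1 was -1.57, a 2.98-fold change of their ratio, against an SD of 0.43 expected between 2 probe sets. They are the lowest and highest of the 7, so this gap is the largest of the 21 pairs by choice. Msh3 minus Pms1 was -1.18, and Pms1 minus Pms2 was 1.10. Msh3 minus Msh6 was 0.39, which is 0.92 of that SD. By their brightest probe sets the MutS genes thus differed from each other by less than the spread between probe sets.

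**Figure D2:**
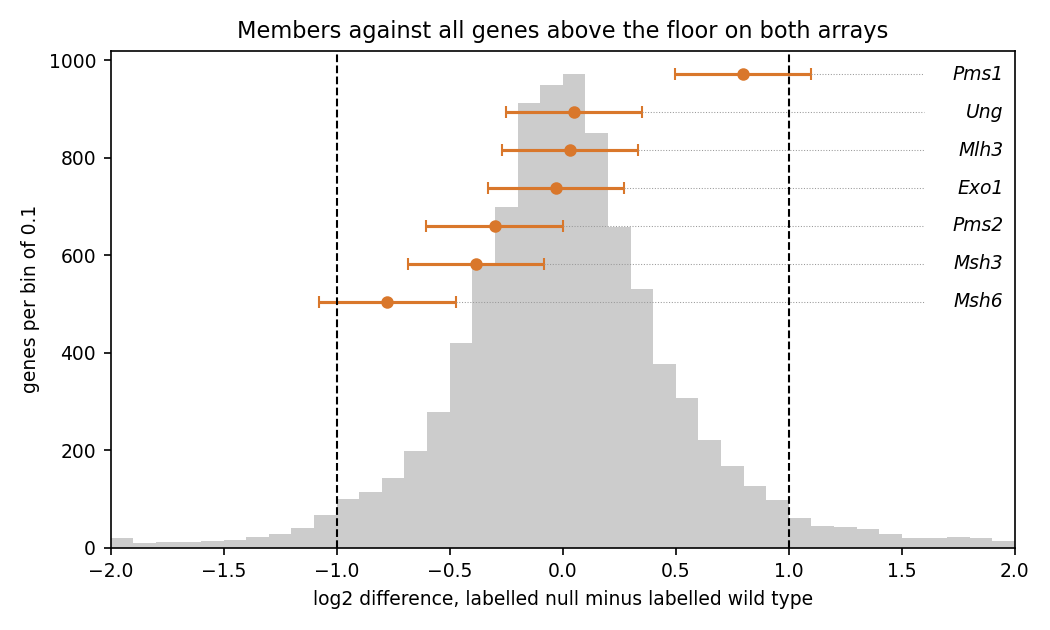
Log2 differences of the 7 genes (points, with bars of 1 probe set SD, 0.30), stacked by rank above a grey histogram of all measured genes in bins of 0.1, whose differences beyond -2 and 2 are not drawn. Dashed lines mark 2-fold, and the points lie inside them, from Msh6 at -0.78 to Pms1 at 0.80.

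Promoter windows were found for 6 of the 7 genes, and their share of G and C ran from 51.7% in Mlh3 to 71.7% in Msh6, against a median of 61.3% for measured genes. The E2F motif was searched on both strands as TTTCCCGC, TTTGGCGC, TTTCGCGC and TTTGCCGC over the whole window of 250 bases before and 50 from the start site. It was found in Msh3 and Msh6, the lowest of the 7 genes by difference, and in none of the other 4. In Msh3 a forward match to TTTGGCGC at -202 overlapped a reverse match to TTTCGCGC at -198, which together form the capitals printed above, and in Msh6 a match to TTTCCCGC began at 15 after the start base, counted as 0. Of 7745 measured genes with a window, 5.22% held such a match, and their median difference was 0.001, against -0.003 for those without. Over measured genes, those with and without these letters were thus alike in their medians.

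The GC box, GGGCGG, was present in Ung, Msh3, Msh6, Pms1 and Pms2, and in 71.2% of measured genes. In Msh3 it occurred 4 times, at -150, -102, -54 and -6, an even spacing of 48 bases that can be followed in the printed sequence as a repeated unit. CCAAT was present in Msh6, Mlh3, Pms1 and Pms2 and in 43.5% of measured genes. In Pms1 it began at -35 on the reverse strand and at -18 on the forward strand, the capitals printed above. The E-box CACGTG, bound by Myc, was present in 0 of the 6 windows and in 12.8% of measured genes. A match describes letters in a window and not binding.

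**Figure D3:**
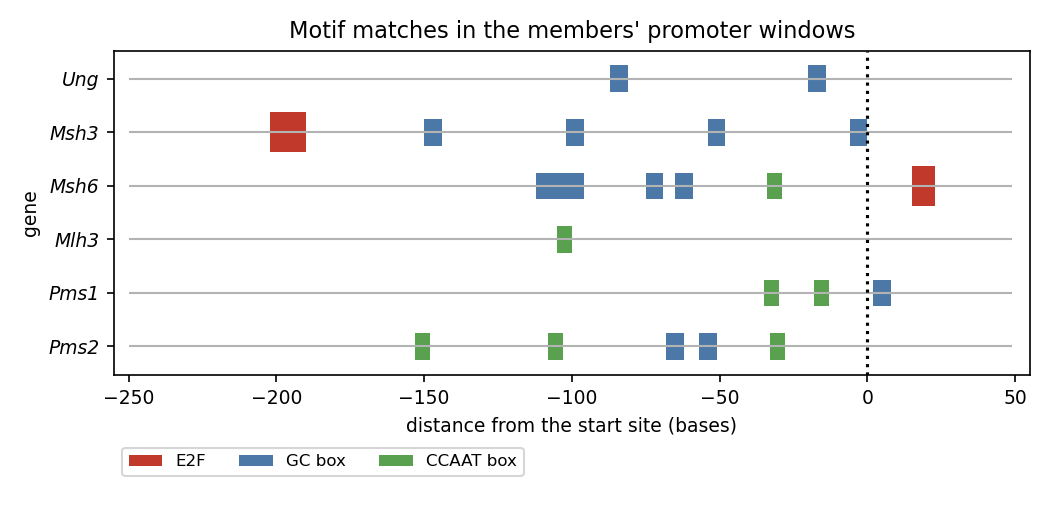
Positions of matches to the E2F motif, the GC box and CCAAT in the windows of 6 genes, by distance in bases from the start site (dotted line). E2F matches lie in Msh3 and Msh6, and Msh3 has 4 evenly spaced GC boxes.

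Pms1 and Pms2 each share a start region with a gene transcribed the other way. Ormdl1, a regulator of sphingolipid synthesis, begins 67 bases from Pms1 and read 834 against 1027, a difference of 0.30. Aimp2, a scaffold of the tRNA synthetase complex, begins 162 bases from Pms2 and read 4020 against 3049, a difference of -0.40. Each partner lay on the same side of 0 as its repair gene. These partners were looked for after the values of the 7 genes were seen, as start sites of opposite strand within 1000 bases. Over 541 such pairs with both genes measured, 61.9% lay on the same side of 0.

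Genes that work beside the 7 are given from lists of known function. Of 17 base excision repair genes, 14 were analysed and measured, with 10 below 0, a median of -0.21, 1 lower and 0 higher by 2-fold. Apex2, an endonuclease that cuts the abasic site left by UNG, read 2288 against 298, 7.67-fold lower on the array labelled null. Its shared probe set read 1767 against 211, a difference of -3.07 beside -2.94, so both readings were alike. Only 0.22% of measured genes had a lower difference. Its paralogue Apex1, the main endonuclease of this step in most cells, named after its values were seen, read 10015 against 11374 by its brightest probe set, a shared one, and its other probe sets differed by 0.06 and -0.25.

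Among the other glycosylases, Smug1, a second uracil glycosylase, read 300.3 against 321, a difference of 0.09. Mbd4, which removes thymine or uracil opposite guanine, read 873 against 1298, the highest of the list at 0.57, and its other 2 probe sets were also higher, by 0.30 and 0.19. Neil1, a glycosylase of oxidised bases named after its values were seen, read 4999 against 2593, a difference of -0.95 by 1 probe set. The uracil glycosylases Ung and Smug1 thus both stayed within the probe set SD of 0, and so did 2 of the 3 probe sets of Mbd4.

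The replication factors that act in mismatch repair, listed with Setd2, were mostly slightly lower on the array labelled null. Setd2, at -0.30, is named with its values known. Of 16 measured genes, 12 lay below 0, against 50.0% of all measured genes, with a median of -0.19. By 2-fold, 1 was higher and 0 lower, against 4.26% and 3.27% of all measured genes. Pcna, the sliding clamp that MSH6, MSH3 and UNG bind, read 23857 against 18070, a difference of -0.40. Rfc3, a subunit of the clamp loader, was the lowest at -0.55, at 2404 against 1642. Pold4, the smallest subunit of polymerase delta, read 1099 against 3519, 3.20-fold higher, by 1 probe set. The MCM helicase genes, which mark replicating cells, had a median of -0.08 over 6 genes, with 3 above and 3 below 0, and the median turned to 0.10 under quantile normalization. They ranged from Mcm7 at -0.27 to Mcm5 at 0.16, the latter by a shared probe set whose companions read -0.04 and -0.03. None of the 6 was at 2-fold.

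By their brightest probe sets, polymerases that copy damaged DNA and the PCNA ubiquitination genes that recruit them did not differ by 2-fold. The 13 measured genes had a median of 0.06, with 7 above 0, and the median turned to -0.02 with the mean of probe sets. Polh, the polymerase that makes the A:T mutations downstream of mismatch repair in antibody genes, read 2053 against 2311 by a shared probe set, a difference of 0.17, and 386 against 552 and 408 against 412 by the other 2 measured ones. Ube2a, a ubiquitin-conjugating enzyme that works with RAD18, was the lowest at -0.79, at 8808 against 5085, and its second probe set had -1.14. Shprh, a ubiquitin ligase of PCNA, was the highest at 0.27, but its other 2 measured probe sets had -0.11 and -0.87, so its sign is not settled.

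**Figure D4:**
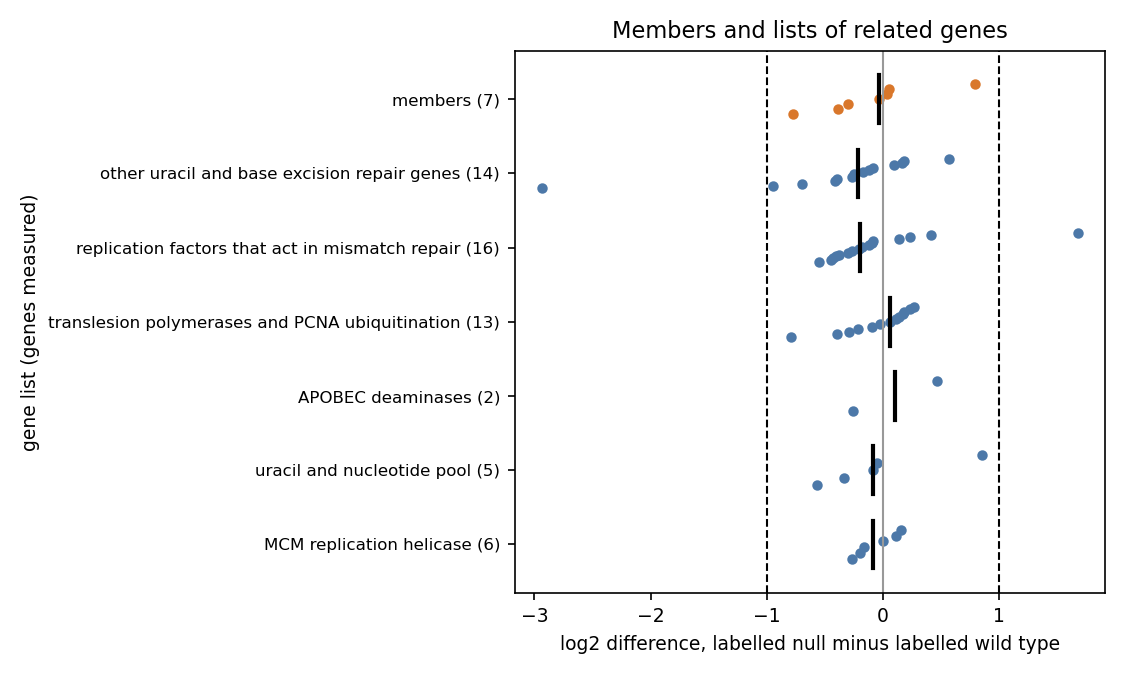
Log2 differences of the 7 genes and of measured genes in related lists (points; number of genes in brackets), with the median of each list as a black bar and 2-fold as dashed lines. Apex2 at -2.94 and Pold4 at 1.68 are the points beyond 2-fold.

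Of the APOBEC deaminases, Apobec3, which restricts retroviruses, read 3776 against 3161, a difference of -0.26, and Apobec1, the RNA editing enzyme, read 1988 against 2743, a difference of 0.46 by a shared probe set. Apobec2 read 255 against 12.3, at least 4.09-fold lower on the array labelled null, but its second probe set lay below the floor on both arrays. Apobec4 was below the floor on both.

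The 5 genes that set the uracil and nucleotide pool had a median of -0.09, with 0 at 2-fold by their brightest probe sets. Tyms, which makes thymidylate from its uracil precursor, read 197 against 356, a difference of 0.86. Another Tyms probe set read 102 against 140, a difference of 0.46, and the rest lay below the floor on both arrays. Dut, which destroys dUTP, named after its values were seen, read 8551 against 8049 by a shared probe set, a difference of -0.09. Its unshared probe set lay on the other side of 0, at 273 against 437, a difference of 0.68. Samhd1, which degrades nucleotides, was the lowest at -0.57, at 2684 against 1807. Its next brightest probe set was alike, at 1819 against 1214, a difference of -0.58. The dimmer Samhd1 probe sets disagreed with these, at 142 against 373 (a shared one), 76.1 against 352 and 134 against 129.

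Markers of other cells or stages were read beside these values. Germinal centre markers were above the floor for 2 against 3 of 6, with summed signals of 279 against 1062, and Fas, Gcsam and Rgs13 were below the floor on both. Macrophage and granulocyte markers were above it for 4 and 6 of 7, with sums of 401 and 2167 and S100a8 below it on both. Stromal and endothelial markers were above it for 3 and 4 of 6, with sums of 905 and 1831 and Pdgfrb below it on both. T and NK cell markers were above it for 1 of 6 on each array, and erythroid markers for 0 of 2. Their part in the differences of the repair genes was not tested. In RNA of a whole culture, fewer cells of a type and less RNA per cell cannot be told apart.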

How the data were processed

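RNA of cultured Eµ-Myc lymphoma cells was measured on 2 Affymetrix mouse expression arrays, 1 per genotype, per the labels. The values deposited by the authors are linear signal intensities of 45101 probe sets. Per the submitters' processing notes they come from MAS5, of unstated version. Both arrays had a mean of 500.003 after trimming 2% from each end, so rescaling left them as deposited. The floor was the median signal over all but 64 control probe sets, and took the place of detection calls. Of the probe sets, 34958 had 1 gene symbol in GEO's platform annotation. The probe set with the highest mean log2 signal stood for a gene. RefSeq (GRCm38.p6) gave chromosomes, gene order and promoter sequences. Scripts ran in Python 3.11.15 with pandas 2.3.3 and were tested on simulated data. With 1 array per group the precision is limited by that number, and no test between arrays was possible.

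The genes, lists and floor were chosen with earlier results of these data known. Named genes are the 7, the highest and lowest measured gene of each list, and Cdk4, Smug1, Mbd4, Pcna, Polh and the APOBEC deaminases; any other gene is marked in the text as picked with its values known. A further related list is not reported here. The alternatives were other floors (the 25th and 75th percentile of the signals), quantile normalization, a pseudocount of 50 with no floor, the mean of a gene's probe sets, no shared probe sets, chromosome medians set to 0, and a 1.5-fold threshold.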

Additional observations from a re-analysis of the deposited data

How the results depend on the processing

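Under 7 alternatives the sign of each of the 7 genes was kept wherever it could be computed, and 45 of 46 values moved by less than the probe set SD. Many of these values could not move, so the count is no measure of stability. A signal above a floor does not depend on it, and a single probe set is its own mean. Leaving out shared probe sets changes no gene whose brightest probe set is unshared. Values of Msh6 and Pms1 could move only under quantile normalization, the pseudocount and chromosome medians set to 0. The exception was Msh3, at -0.83 with the mean of its probe sets. Msh6 ranged from -0.83 to -0.76 and Pms1 from 0.72 to 0.80. The median of the 7 ranged from -0.30 to -0.03, and 0 genes were at 2-fold under each of the 7, while 2 were at 1.5-fold. Of the list medians, the uracil and nucleotide pool turned to 0.30 with the mean of probe sets and the APOBEC deaminases to -0.26 without shared probe sets, where Apobec3 is the only one left, and to -0.015 with chromosome medians set to 0. MCM genes turned to 0.10 under quantile normalization and 0.05 with the mean of probe sets, and translesion genes to -0.02 under the latter and with the floor at the 75th percentile. The causes were not tested. Ung has no value without shared probe sets. Mlh3 and Pms1 have none with the floor at the 75th percentile, where Mlh3 is below it on both arrays and Pms1 on one. Apex2 is below that floor on the array labelled null, so 0 of the base excision repair genes then had a measured 2-fold. Counts at 2-fold also went from 0 to 1 for the nucleotide pool with chromosome medians set to 0 and for the meiotic MutS genes with the floor at the 25th percentile. No paired analysis was possible because each group is 1 array.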
